A study of Mus musculus with 2 samples.

Results

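Id1, Id2, Id3 and Id4 are the inhibitor of DNA binding genes, and the family was followed here by its 4 gene symbols, all present among the 25507 genes of both count tables. Id proteins carry a helix-loop-helix (HLH) domain without the basic region that contacts DNA. They pair with E proteins (Tcf3, Tcf4 and Tcf12), which are the partners that tissue-specific basic helix-loop-helix (bHLH) factors such as Neurog3 and Neurod1 need, and so hold bHLH activity down. Transcription of Id genes is a known direct response to bone morphogenetic protein (BMP) signals through Smad proteins, and in the embryonic pancreas Id2 has been studied as a BMP target in progenitors.

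The cells came from the pancreas of wild-type mouse embryos at E14.5 and were profiled by droplet single-cell RNA sequencing in 2 libraries. All cells had been flow-sorted for low or high signal of Ngn3eGFP, which reports Neurog3 activity by green fluorescence, so every group below shares that sort, and cells without the reporter are under-represented by an unknown amount. The labels call both libraries wild type, name the cell type as islet, and do not say whether the libraries came from separate embryos, litters or pools. The p-values therefore measure a group difference only against how such differences varied between these libraries, with the spread estimated over all groups of a fit. This variation may be technical, and cells were never used as replicates.

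Cells were grouped by raw counts of unique molecular identifiers (UMIs, each standing for 1 captured RNA molecule). The Neurog3 group held cells with at least 3 Neurog3 UMIs and fewer than 3 of Chgb (chromogranin B, a protein of endocrine granules). The Neurog3 and Chgb group had at least 3 of each, and the Chgb group at least 3 Chgb UMIs with fewer than 3 of Neurog3. Cells with at least 3 UMIs of Spp1, a gene of the trunk epithelium, and fewer than 3 of Chgb were split into a Spp1 Neurog3-low group with 1 to 2 Neurog3 UMIs and a Spp1 Neurog3-zero group with 0. The Gcg group (glucagon), the insulin group (Ins1 plus Ins2), the Cpa1 group (a digestive enzyme gene of tip cells) and the Csf1r group (a macrophage receptor) had at least 5, 20, 5 and 2 UMIs of their marker, and cells that met one of these rules were kept out of the other groups. The Neurog3 group had 113 cells in library 1 and 180 in library 2, the Spp1 Neurog3-low group 26 and 55, and the Spp1 Neurog3-zero group 80 and 156. The Neurog3 and Chgb group had 10 and 16 cells, the Chgb group 95 and 150, the Gcg group 29 and 56, the insulin group 39 and 99, the Cpa1 group 9 and 85, and the Csf1r group 7 and 35.

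Library 1 held 1910588 UMIs over 535 barcodes and library 2 held 3425983 UMIs over 1100, and 515 and 1070 cells were used, with median depths of 3225.0 and 2847.5 UMIs. The libraries shared 3 barcodes. Summed trunk markers (5 of 5 detected) reached 3820 and 5913 CPM (summed UMIs of a group on the counts-per-million scale) in the Spp1 Neurog3-zero group and 1223 and 1852 CPM in the Neurog3 group, and summed endocrine markers reached 7168 and 7815 CPM in the Chgb group. Neurog3 UMIs were found in 42.9% and 17.1% of Csf1r cells, which are not known to express it, at 159 and 63.5 CPM. The part of free RNA in the 1 to 2 Neurog3 UMIs of cells of the Spp1 Neurog3-low group was not tested. Comparisons of the Cpa1 and Csf1r groups were not made at these thresholds, because a group needed 10 cells in each library.

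The 4 genes stand apart in the genome and are alike where they encode the HLH domain. Which part of each transcript the reads covered was not examined, and counting of one gene's reads for another was not tested. On GRCm38 (GENCODE M21), Id1 lies on the plus strand at chr2:152736251-152737410, Id2 on the minus strand at chr12:25093799-25097140, Id3 on the plus strand at chr4:136143497-136145755 and Id4 on the plus strand at chr13:48261228-48266026. The exonic coding stretches below, from each gene's own strand in GRCm38, are 120 bases within the HLH-encoding region, with the 69 bases that all 4 share in capitals.
Id1, chr2:152736518-152736637, plus strand: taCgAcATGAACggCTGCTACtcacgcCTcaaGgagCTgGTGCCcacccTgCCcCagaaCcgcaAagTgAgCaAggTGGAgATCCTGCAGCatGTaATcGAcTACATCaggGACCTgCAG
Id2, chr12:25095783-25095902, minus strand: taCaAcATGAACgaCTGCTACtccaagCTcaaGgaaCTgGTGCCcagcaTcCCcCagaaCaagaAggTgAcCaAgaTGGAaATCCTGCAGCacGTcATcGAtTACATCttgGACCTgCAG
Id3, chr4:136144002-136144121, plus strand: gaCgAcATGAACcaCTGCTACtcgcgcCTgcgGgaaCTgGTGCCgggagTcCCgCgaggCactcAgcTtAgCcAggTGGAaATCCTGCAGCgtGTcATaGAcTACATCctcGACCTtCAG
Id4, chr13:48261693-48261812, plus strand: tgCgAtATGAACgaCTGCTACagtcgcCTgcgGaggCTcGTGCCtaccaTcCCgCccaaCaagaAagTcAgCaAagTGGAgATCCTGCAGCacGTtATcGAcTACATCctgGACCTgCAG
Over this stretch the pairs were between 70.8% (Id1 with Id3, and Id3 with Id4) and 81.7% (Id1 with Id2) identical. Over whole transcripts the longest run that any pair shared was 19 bases, between Id2 and Id3. Exons of Id4 overlap 2 antisense genes, A330033J07Rik and Gm49291, and whether reads were counted by strand is not stated in the sources used here, so the Id4 level is uncertain. Among the other genes named below, exons of the markers Neurog3, Spp1 and Csf1r and of Neurod1, Cdkn1a, Cdkn1c, Acvr1c, Ccna2, Tgif2, Mpzl2, Actn1, Cdca7l, Surf2, Eri2, Rhbdd3 and Ftx also overlap another gene, with the same limit.

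Id2, Id1 and Id3 were detected in a minority of cells and Id4 was close to the limit of detection. Over all cells used, at least 1 Id2 UMI was found in 21.2% of cells of library 1 and 22.1% of library 2. Id1 was found in 12.8% and 11.9% of cells, Id3 in 8.74% and 7.29%, and Id4 in 2.91% and 3.74%. The totals were 228 and 405 UMIs for Id2, 102 and 209 for Id1, 83 and 131 for Id3, and 20 and 51 for Id4.

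**Figure D1:**
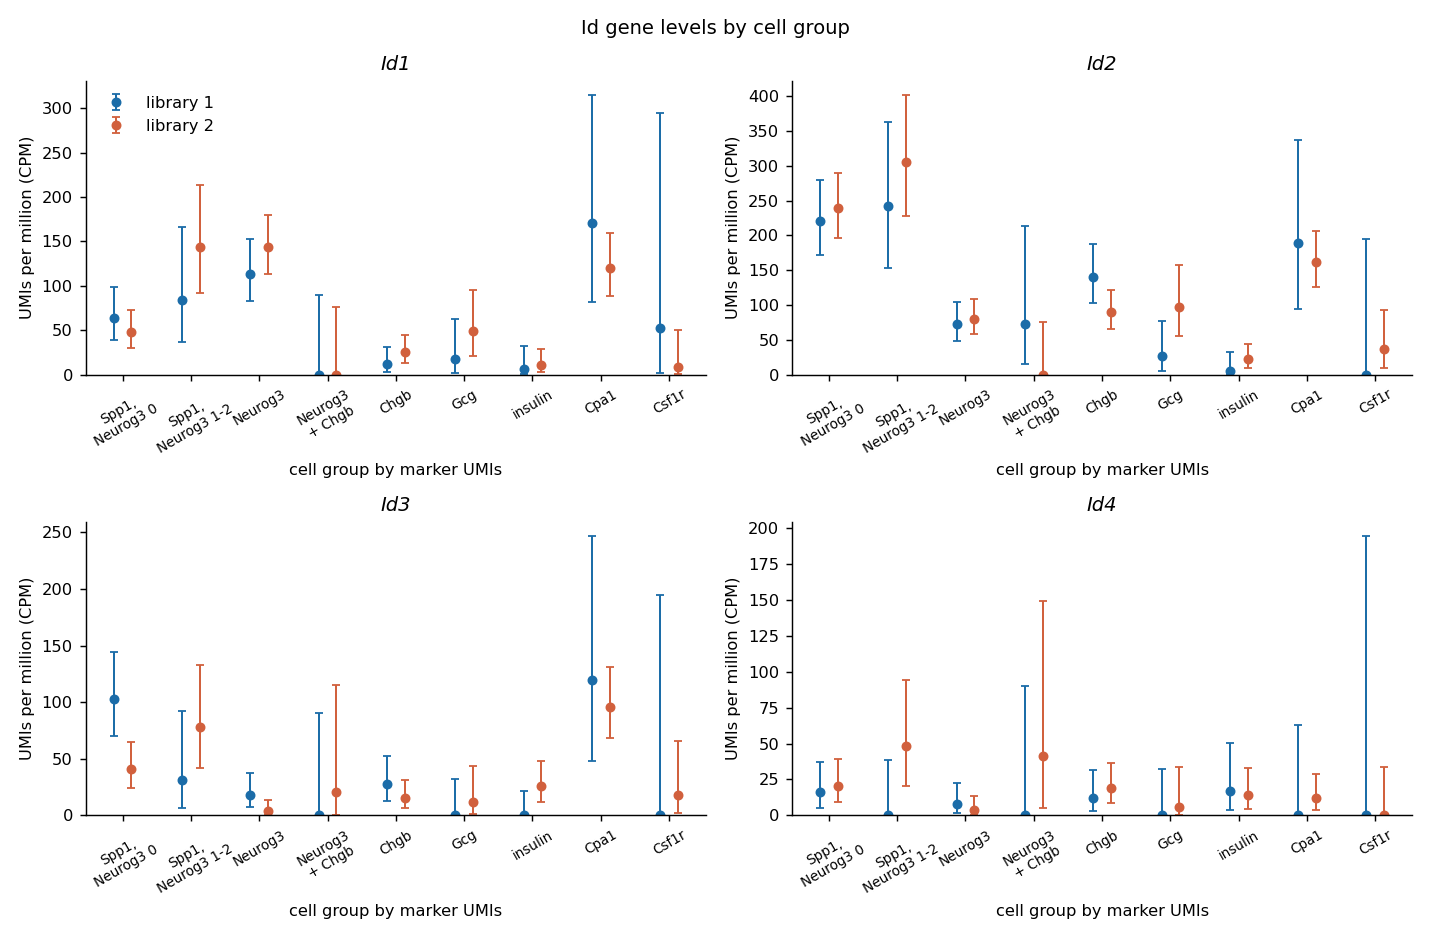
Level of each Id gene (y axis, CPM) in the 9 marker groups (x axis) of library 1 (blue) and library 2 (orange). Points are summed levels and bars are exact Poisson 95% intervals, which cover counting error only. Id1 stands between 84.2 and 144 CPM in the Spp1 Neurog3-low and Neurog3 groups and at 0 in the Neurog3 and Chgb group, and Id2 stands at 72.2 and 80.4 CPM in the Neurog3 group.

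Across the 9 groups the members had different orders, as the plot of levels by group shows. Id1 averaged 146 ± 36.1 CPM in the Cpa1 group, 129 ± 21.5 CPM in the Neurog3 group and 114 ± 42.2 CPM in the Spp1 Neurog3-low group (SD, n = 2 libraries), and these neighbours overlapped. The next group, Spp1 Neurog3-zero with 56.0 ± 11.5 CPM, lay apart from them, below the lower library of the Spp1 Neurog3-low group. Id1 then stood at 33.1 ± 22.1 CPM in the Gcg group, 31.0 ± 30.9 CPM in the Csf1r group and 19.0 ± 9.56 CPM in the Chgb group, each overlapping the next. The insulin group had 8.53 ± 3.95 CPM and the Neurog3 and Chgb group had no Id1 UMI in either library.

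Id2 was highest in trunk cells. It averaged 274 ± 44.9 CPM in the Spp1 Neurog3-low group, 230 ± 12.8 CPM in the Spp1 Neurog3-zero group, 175 ± 18.7 CPM in the Cpa1 group, 115 ± 35.7 CPM in the Chgb group and 76.3 ± 5.74 CPM in the Neurog3 group, and the libraries of each of these neighbours did not overlap. From the Neurog3 group down, neighbouring groups overlapped, with 61.7 ± 50.3 CPM in the Gcg group, 36.6 ± 51.8 CPM in the Neurog3 and Chgb group, 18.1 ± 25.7 CPM in the Csf1r group and 14.2 ± 11.96 CPM in the insulin group. Id3 was highest in the Cpa1 group (108 ± 17.1 CPM), the Spp1 Neurog3-zero group (71.8 ± 43.5 CPM) and the Spp1 Neurog3-low group (54.8 ± 32.8 CPM), which overlapped in that order. Every other group averaged between 6.08 and 21.3 CPM of Id3. Id4 averaged between 0 CPM in the Csf1r group and 24.0 ± 33.9 CPM in the Spp1 Neurog3-low group, and 7 of the 8 steps in its order overlapped, the exception being the insulin group over the Cpa1 group.

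The comparison of the Neurog3 group with the Spp1 Neurog3-zero group asks what the Id genes did when trunk cells had started endocrine differentiation. Id2 and Id3 were lower and Id1 was higher in the Neurog3 group taken as a whole. Id2 had 72.2 and 80.4 CPM in the Neurog3 group, against 221 and 239 CPM in the Spp1 Neurog3-zero group. The groups did not overlap, and Id2 fell by 1.57 ± 0.32 on the log2 scale (SE; adjusted p = 0.000208, edgeR quasi-likelihood test, lower in 2 of 2 libraries). The size of this fall takes in Neurog3 cells with little Spp1, whereas every Spp1 Neurog3-zero cell had 3 or more Spp1 UMIs. Neurog3 cells with 3 or more had 152 and 116 CPM of Id2, and those with fewer had 28.1 and 54.6 CPM. Both lay below the Spp1 Neurog3-zero group, and the part of Spp1 in the fall was not tested. Id3 had 18.1 and 3.74 CPM in the Neurog3 group, against 103 and 41.0 CPM in the Spp1 Neurog3-zero group. It fell by 2.71 ± 0.64 on the log2 scale (edgeR adjusted p = 0.00174, lower in 2 of 2 libraries), on 7 and 2 UMIs against 32 and 18. DESeq2 gave a like size for Id3 and did not pass (log2 change -2.78, adjusted p = 0.0955).

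Id1 had 114 and 144 CPM in the Neurog3 group, against 64.1 and 47.9 CPM in the Spp1 Neurog3-zero group. It rose by 1.23 ± 0.38 on the log2 scale (edgeR adjusted p = 0.0310, higher in 2 of 2 libraries, without overlap). The rise lost its call, at 1.17 to 1.25, in 4 of the 9 alternatives that gave an adjusted p. These 4 were DESeq2 (adjusted p = 0.261), no filter on low counts (0.0637), no library term (0.0567) and doubled thresholds (0.0705). A single cell held 9 of the 44 Id1 UMIs of the Neurog3 group in library 1 (20.5%), and without it the level was 91.3 CPM. Neurog3 cells with 3 or more Spp1 UMIs, a split described below, had 210 and 242 CPM of Id1. Those with fewer than 3 had 60.1 and 73.8 CPM, which overlapped the Spp1 Neurog3-zero group, where every cell had 3 or more. Id4 had 7.74 and 3.74 CPM in the Neurog3 group, against 16.0 and 20.5 CPM in the Spp1 Neurog3-zero group, and did not pass (log2 change -1.65 ± 0.92, edgeR adjusted p = 0.373). Thus 3 of 4 members were called, 1 higher and 2 lower, where 6.62% of the 9481 genes tested were called (3.72% higher and 2.9% lower). Mesenchyme markers summed to 147 and 112 CPM in the Neurog3 group, against 112 and 93.4 CPM in the Spp1 Neurog3-zero group, and endothelium markers to 61.9 and 46.7 against 70.5 and 61.5 CPM. The part of these other cell types in the Id levels was not tested.

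**Figure D2:**
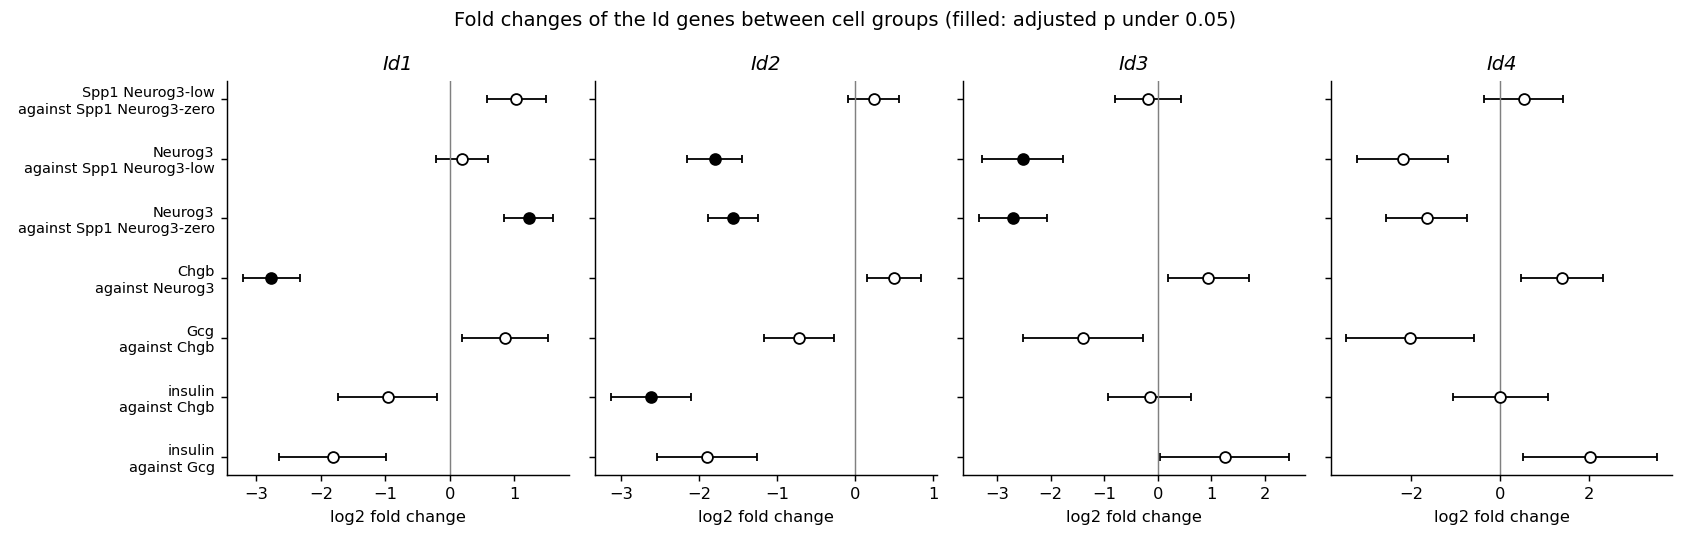
Log2 fold change of each Id gene (x axis) between cell groups (y axis), with the first-named group over the second, bars of 1 SE from edgeR and filled points for adjusted p under 0.05. Id1 is filled in the rise of the Neurog3 over the Spp1 Neurog3-zero group (1.23) and in the fall of the Chgb below the Neurog3 group (-2.77), Id2 and Id3 are filled in both falls into the Neurog3 group, Id2 also in the fall of the insulin below the Chgb group (-2.62), and Id4 is filled nowhere.

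Within trunk cells, the first Neurog3 UMIs went with no called change of an Id gene. Id1 had 84.2 and 144 CPM in the Spp1 Neurog3-low group, against 64.1 and 47.9 CPM in the Spp1 Neurog3-zero group. The log2 difference of 1.03 ± 0.46 had an unadjusted p of 0.0261 and an edgeR adjusted p of 0.991. Id2 had 242 and 306 CPM in the Spp1 Neurog3-low group, against 221 and 239 CPM in the Spp1 Neurog3-zero group (log2 difference 0.23 ± 0.32, edgeR adjusted p = 0.991). Id3 went opposite ways in the libraries, with 31.6 and 77.9 against 103 and 41.0 CPM, and Id4 had 0 and 48.0 against 16.0 and 20.5 CPM. Of 9481 genes tested, 1 was called here (0.0105%, higher, and 0% lower), with 26 and 55 cells in the Spp1 Neurog3-low group.

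Between the Neurog3 group and the Spp1 Neurog3-low group, Id2 fell by 1.81 ± 0.36 on the log2 scale (edgeR adjusted p = 0.000213, lower in 2 of 2 libraries). Id2 had 72.2 and 80.4 CPM in the Neurog3 group, against 242 and 306 CPM in the Spp1 Neurog3-low group. Here too every reference cell had 3 or more Spp1 UMIs, whereas the Neurog3 group takes in cells with fewer. Id3 fell by 2.52 ± 0.76 (edgeR adjusted p = 0.0393), but the size came from library 2, where the log2 change was -4.07 against -0.71 in library 1. Its call was lost without the filter (adjusted p = 0.0542), without the library term (0.0849) and with halved thresholds (0.180). Id1 differed by 0.19 ± 0.41 (edgeR adjusted p = 0.907), and Id4, at 7.74 and 3.74 against 0 and 48.0 CPM, was not called either. Of all genes 3.63% were called (2.14% higher and 1.49% lower). The comparison shares the Neurog3 group with the comparison above, so the falls are not independent of each other.

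**Figure D3:**
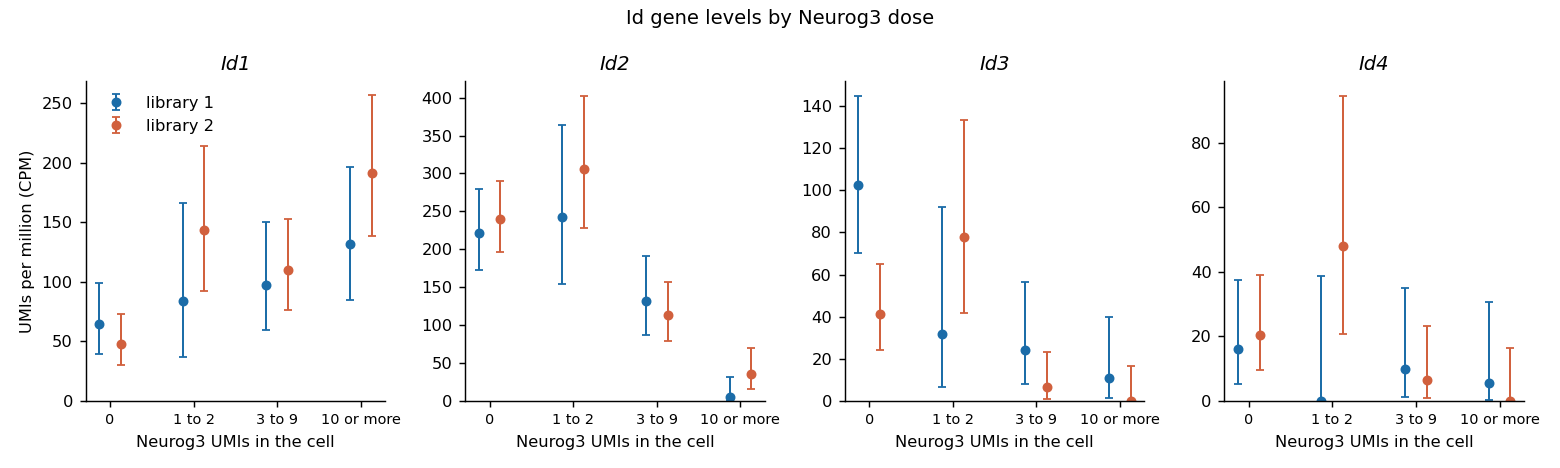
Level of each Id gene (y axis, CPM) by the number of Neurog3 UMIs in the cell (x axis), with Spp1 cells at 0 and at 1 to 2 UMIs and the Neurog3 group at 3 to 9 and at 10 or more, in library 1 (blue) and library 2 (orange). Bars are exact Poisson 95% intervals for counting error. Id1 reaches 132 and 191 CPM at 10 or more Neurog3 UMIs, where Id2 is at 5.51 and 35.6 CPM.

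Along Neurog3 counts, the levels of Id1 and Id2 lay in opposite orders within the Neurog3 group, though neither difference passed. Id2 had 5.51 and 35.6 CPM in cells with 10 or more Neurog3 UMIs, against 131 and 113 CPM in cells with 3 to 9. The groups did not overlap, and the log2 difference was -2.44 ± 0.54 (edgeR adjusted p = 0.164). It passed without a filter on low counts (adjusted p = 0.00851) and with the called doublets kept (0.000738), and over all alternatives its adjusted p ran between 0.000738 and 1.00. Id1 had 132 and 191 CPM at 10 or more Neurog3 UMIs, against 97.1 and 110 CPM at 3 to 9 (log2 difference 0.67 ± 0.33, edgeR adjusted p = 0.696). Here 0.0929% of the 5383 genes tested were called (0.0372% higher and 0.0557% lower), and Id3 and Id4 did not pass the filter on low counts. Id3 had 11.01 and 0 CPM at 10 or more, against 24.3 and 6.45 CPM at 3 to 9. Cells with 10 or more Neurog3 UMIs were deeper, with medians of 3742.0 and 3103.0 UMIs against 2699.5 and 2522.0, and the part of depth was not tested beyond the alternatives given.

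Id2 was also counted by cells with at least 1 UMI. Cells without Neurog3 enter this count only with 3 or more Spp1 UMIs, and cells of the Neurog3 group enter with or without Spp1, so that it in large part restates the comparison of groups. Among the 2 Spp1 groups and the Neurog3 group together, Id2 was found in 14.4% of cells with a Neurog3 UMI in library 1 (20 of 139, exact binomial 95% interval 9.02 to 21.3%), against 47.5% of cells without (38 of 80, 36.2 to 59.0%). In library 2 the shares were 20.9% (49 of 235, 15.8 to 26.6%) against 39.7% (62 of 156, 32.0 to 47.9%). With every cell thinned to 1000 UMIs and both genes read from the thinned counts, Id2 was found in 3.70% and 6.99% of cells with Neurog3, against 19.8% and 23.4% of cells without. The intervals, which cover counting error only, did not overlap in either library, thinned or not.

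For Id1 the unthinned shares were 21.6% and 20.9% of cells with Neurog3, against 13.8% and 12.2% of cells without, with overlapping intervals. Thinned, they were 7.41% and 5.91% against 5.41% and 7.80%, so that the libraries went opposite ways and no difference in detection was seen at this depth. Cells of the Neurog3 group with Id1 carried 1.76 and 2.08 Id1 UMIs each, against 1.82 and 1.11 in the Spp1 Neurog3-zero group, so that here too the libraries went opposite ways. Id3 was found in 6.47% and 4.68% of cells with Neurog3, against 16.2% and 7.69% of cells without (thinned, 0% and 0.538% against 4.505% and 4.39%).

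**Figure D4:**
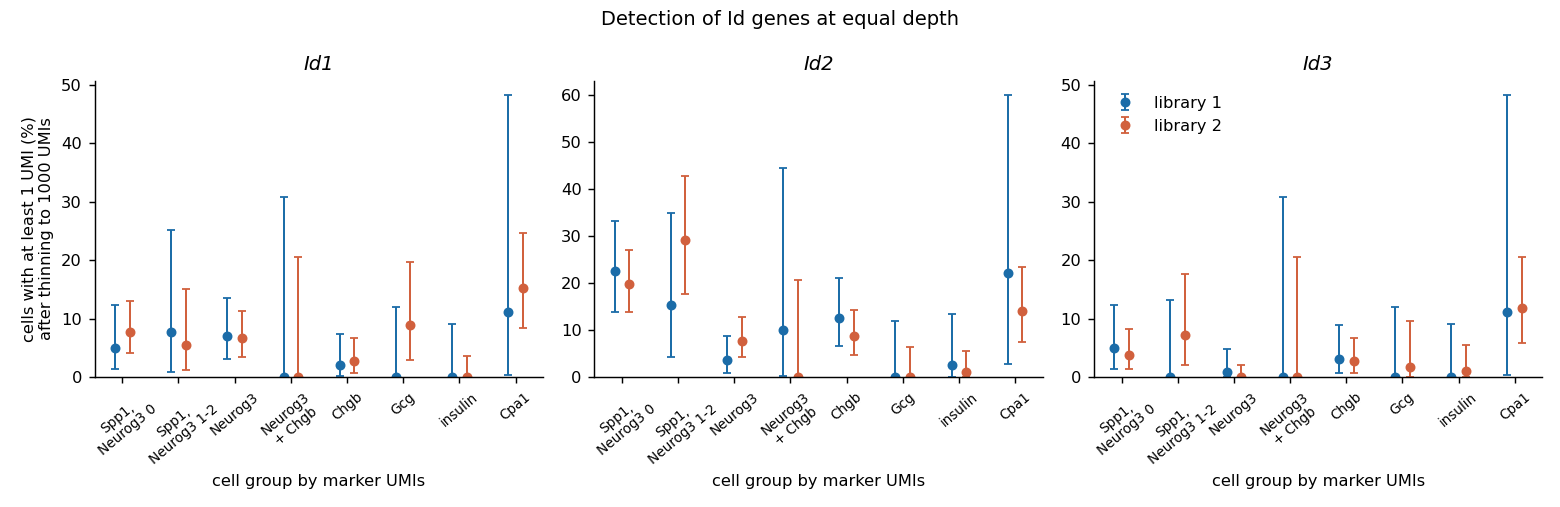
Share of cells with at least 1 UMI of Id1, Id2 or Id3 (y axis, %) after every cell was thinned to 1000 UMIs, by marker group (x axis), in library 1 (blue) and library 2 (orange). Bars are exact binomial 95% intervals for counting error. Id2 is seen in 22.5% and 19.9% of Spp1 Neurog3-zero cells and in 3.54% and 7.78% of cells of the Neurog3 group.

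Thinned shares by group, shown in the plot of detection at equal depth, put Id2 at 3.54% and 7.78% of the Neurog3 group, against 22.5% and 19.9% of the Spp1 Neurog3-zero group. Unthinned, these were 11.5% and 15.0% against 47.5% and 39.7%. No group is known to lack all Id genes, so the lowest groups stand in for background. Thinned, Id2 was found in 2.56% and 1.01% of the insulin group (median depth before thinning 4467.0 and 3522.0 UMIs) and in 0% and 0% of the Csf1r group (2724.0 and 2970.0 UMIs). Id1 was found in 0% and 0% of the insulin group and in 0% and 2.86% of the Csf1r group. The intervals of the 7 Csf1r cells of library 1 reach 41.0%, and those of the 39 insulin cells reach 13.5% for Id2, above the 3.54% of the Neurog3 group.

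Within the Neurog3 group, Id1 and Id2 were seldom in the same cell. Id1 was present in 25 and 37 cells, Id2 in 13 and 27, and both in 2 and 5. Id1 was found in 15.4% and 18.5% of the cells with Id2, against 23.0% and 20.9% of the cells without, with overlapping intervals, so no exclusion was detectable. Cells with Id2 had 1272 and 2031 CPM of Neurog3, against 3055 and 3460 CPM in cells without Id2. They were also deeper (medians 4702.0 and 3067.0 UMIs, against 2890.5 and 2745.0), and a deeper cell reaches 3 Neurog3 UMIs at a lower CPM. For Id1 the Neurog3 levels were 2801 and 3034 CPM in cells with it, against 2768 and 3278 CPM in cells without. Cells with Id1 had more Spp1 (1406 and 1902 CPM, against 630 and 1246 CPM) and were deeper (medians 3949.0 and 3630.0 UMIs, against 2866.0 and 2616.0).

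The Neurog3 group was then split at 3 Spp1 UMIs, to separate cells with trunk transcripts from those without. The split was chosen after cells with Id1 or Id2 had been seen to carry more Spp1, so the side on which Id1 and Id2 fall was known, and their values are a description with no test. Id1 had 210 and 242 CPM in Neurog3 cells with Spp1, against 60.1 and 73.8 CPM in Neurog3 cells without, a log2 difference of 1.76 ± 0.33 (SE). Id2 had 152 and 116 CPM in Neurog3 cells with Spp1, against 28.1 and 54.6 CPM in those without, a log2 difference of 1.65 ± 0.44. The libraries with Spp1 did not overlap those without for either gene. Over all genes, 5.11% of 6013 were called by edgeR in this split (2.76% higher and 2.34% lower), and Id3 and Id4 did not pass the filter on low counts.

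The cells with Spp1 were deeper (medians 3949.0 and 3139.0 UMIs, against 2798.5 and 2537.0), and with every cell thinned to 1000 UMIs the Id1 difference was 1.60. With markers scaled to 3000 UMIs per cell the Id2 difference was 0.76. Cycle genes moved with the same split, 5 of 12 tested being higher in cells with Spp1, among them Mki67 at 72.4 and 107 CPM against 16.0 and 19.3 CPM. The part of the cell cycle in the Id levels was not tested in this split.

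**Figure D5:**
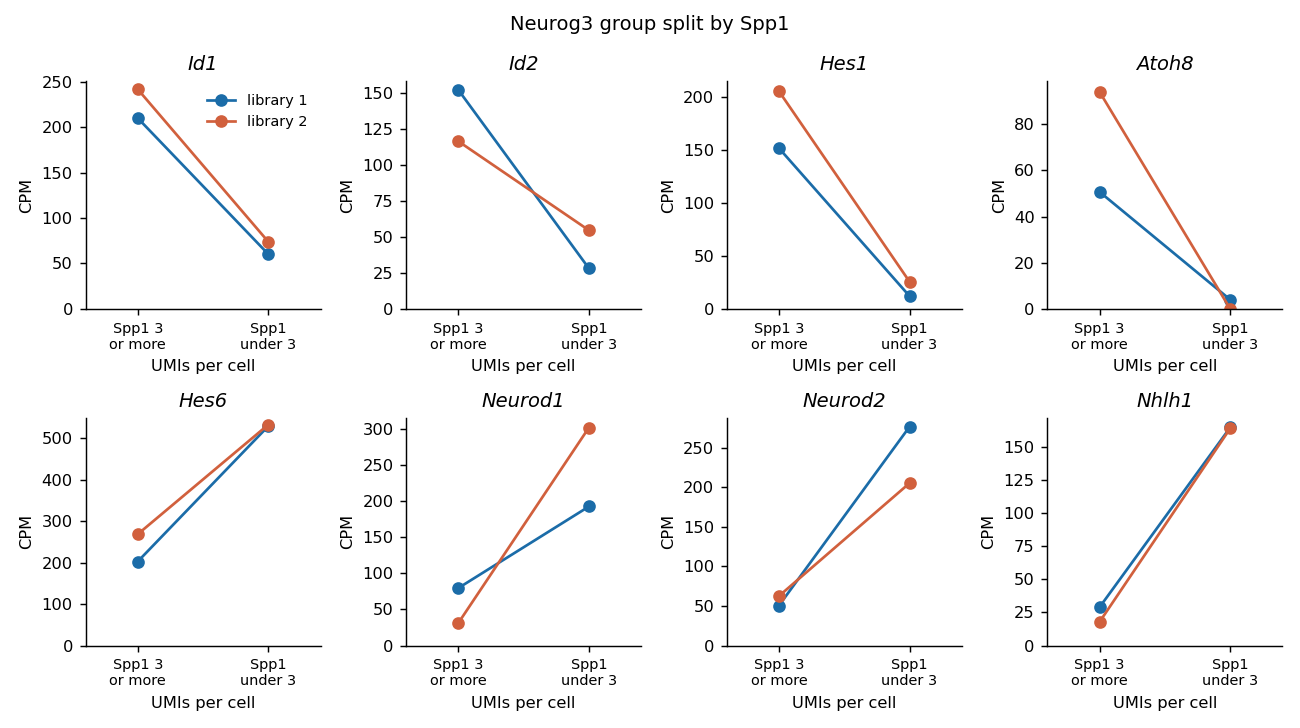
Levels (y axis, CPM) of Id1, Id2 and 6 bHLH or bHLH-related genes in cells of the Neurog3 group with 3 or more Spp1 UMIs (left) and under 3 (right), with a line for each library (library 1 blue, library 2 orange). Id1, Id2, Hes1 and Atoh8 are higher with Spp1, and Hes6, Neurod1, Neurod2 and Nhlh1 are lower, in both libraries.

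Genes that Id proteins act on or are tied to were followed beside them. In the Neurog3 group split by Spp1, Nhlh1, Neurod1 and Neurod2, bHLH factors of neural and endocrine differentiation, were lower with Spp1, and Atoh8, another bHLH factor, was higher. Spp1 is a trunk gene, so the split in part sets the side of trunk and endocrine genes. Values of this split are therefore a description with no test. Neurod1 had 79.6 and 31.3 CPM in Neurog3 cells with Spp1, against 192 and 302 CPM in those without (log2 change -2.27 ± 0.39, SE). Atoh8 had 50.7 and 94.0 CPM with Spp1, against 4.01 and 0 CPM without. Hes1, a repressor induced by Notch, had 152 and 206 CPM with Spp1, against 12.03 and 25.7 CPM without, a log2 difference of 3.22 ± 0.46. Hes6, a family member that counters Hes1, was lower with Spp1 by 1.13 ± 0.22.

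In the Neurog3 group against the Spp1 Neurog3-zero group, 3 of 8 tested tissue bHLH factors rose and none fell, with a list median of 0.22 against -0.02 over all genes. Neurod1 rose by 3.54 ± 0.40, Neurod2 by 3.49 ± 0.48 and Nhlh1 by 2.74 ± 0.51 on the log2 scale. Hes6 had 413 and 422 CPM in the Neurog3 group, against 70.5 and 59.2 CPM in the Spp1 Neurog3-zero group, and rose by 2.70 ± 0.29. Hes1 had 61.9 and 101 CPM in the Neurog3 group, against 249.97 and 492 CPM in the Spp1 Neurog3-zero group, and fell by 2.16 ± 0.30 (edgeR adjusted p = 1.72e-08). Of the E proteins, the direct partners of Id proteins, 0 of 3 were called by edgeR, and 0 had an unadjusted p under 0.05. Tcf3 had 217 and 235 CPM in the Neurog3 group, against 202 and 198 CPM in the Spp1 Neurog3-zero group, and Tcf4 188 and 230 against 154 and 169 CPM. Tcf12 had 126 and 163 CPM in the Neurog3 group, against 141 and 166 CPM in the Spp1 Neurog3-zero group.

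The BMP and TGF-beta pathway was read in the same comparison, where 6.62% of all genes were called. Of its ligands 1 of 4 tested was called, of its receptors 1 of 11, of the Smads 0 of 5 and of the inhibitors 0 of 4 by edgeR, with 1 Smad and 2 inhibitors at an unadjusted p under 0.05. The ligand was Gdf11 with 64.5 and 86.0 CPM in the Neurog3 group, against 44.9 and 11.4 CPM in the Spp1 Neurog3-zero group (log2 change 1.60 ± 0.50). The receptor was Tgfbr1, which rose by 1.01 ± 0.32. Bmp7, a BMP ligand, had 82.6 and 56.1 CPM in the Neurog3 group, against 144 and 66.1 CPM in the Spp1 Neurog3-zero group, and was not called. Smad6 and Smad7, inhibitory Smads that answer the same signals as Id genes, stayed at or under 32.0 CPM in both groups. Cdkn1a, a cell cycle brake that E proteins activate, rose by 2.22 ± 0.24, with 557 and 1028 CPM in the Neurog3 group, against 163 and 178 CPM in the Spp1 Neurog3-zero group. Of 16 cycle genes 5 were lower, among them Ccna2 (fell by 1.67 ± 0.37) and Mki67 (fell by 1.53 ± 0.37).

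Id1 was not found in cells with both Neurog3 and Chgb. In the Neurog3 and Chgb group it had 0 UMIs in either library, among 26 cells, which allows up to 11.5% of cells with an Id1 UMI at this depth and sets no limit on cells that express it, against 44 and 77 UMIs in the Neurog3 group. Taking 3 counts over the group as the floor (33.6 CPM), Id1 was at least 3.91-fold lower than the 131 CPM of the Neurog3 group pooled (edgeR adjusted p = 0.00281, lower in 2 of 2 libraries). That reference pools cells with and without Spp1, whereas the Neurog3 and Chgb group had 24.4 and 62.0 CPM of Spp1. Neurog3 cells with fewer than 3 Spp1 UMIs had 60.1 and 73.8 CPM of Id1, and the bound was not taken against them. Id2 had 73.2 and 0 CPM in the Neurog3 and Chgb group, against 72.2 and 80.4 CPM in the Neurog3 group, Id3 0 and 20.7 against 18.1 and 3.74 CPM, and Id4 0 and 41.3 against 7.74 and 3.74 CPM. None of these 3 passed, and they rest on 3, 1 and 2 UMIs in the smaller group. Of all genes 2.28% were called (0.844% higher and 1.43% lower). Scaling by DESeq2's size factors moved the median of all genes by 0.11 on the log2 scale in this comparison, between -0.20 and -0.09, and turned the sign of Id3 (-0.05 against 0.06). Hes1 and Bambi, a decoy receptor of the BMP pathway, were also at 0 UMIs in the Neurog3 and Chgb group. They were at least 2.52-fold and at least 2.32-fold lower than in the Neurog3 group pooled. In Neurog3 cells with fewer than 3 Spp1 UMIs, Hes1 was already under the floor of 33.6 CPM in both libraries. No fall of Hes1 can therefore be read against those cells, and Bambi was not set against them. Neurod1 rose by 1.94 ± 0.30 in the same comparison, while Hes6 fell by 1.75 ± 0.41 and Cdkn1a by 1.66 ± 0.32.

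Against the Neurog3 group taken as a whole, the larger Chgb group had less Id1 and no called change of the others. Id1 had 12.2 and 25.7 CPM in the Chgb group, against 114 and 144 CPM in the Neurog3 group. It fell by 2.77 ± 0.44 on the log2 scale (edgeR adjusted p = 7.15e-07, lower in 2 of 2 libraries), and the adjusted p stayed between 1.96e-07 and 8.91e-05 over 9 alternatives. Unthinned, Id1 was found in 4.21% and 5.33% of Chgb cells, against 22.1% and 20.6% of the Neurog3 group (thinned, 2.11% and 2.67% against 7.08% and 6.67%). Id2 had 141 and 90.1 CPM in the Chgb group, against 72.2 and 80.4 CPM in the Neurog3 group (log2 difference 0.50 ± 0.34, edgeR adjusted p = 0.455). Id3 had 27.5 and 15.0 against 18.1 and 3.74 CPM, and Id4 12.2 and 19.3 against 7.74 and 3.74 CPM, neither called. Of all genes 10.4% were called (4.27% higher and 6.09% lower). The Neurog3 group pools cells with and without Spp1, whereas the Chgb group had 32.2 to 61.1 CPM of Spp1. Neurog3 cells with fewer than 3 Spp1 UMIs had 60.1 and 73.8 CPM of Id1. They had 28.1 and 54.6 CPM of Id2, below the Chgb group in both libraries. The Chgb group was not tested against those cells, and the same limit holds for the genes of the next paragraph.

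Of the E proteins, 2 of 3 were lower in the Chgb group than in the Neurog3 group and none was higher, where 6.09% of all genes were lower. Tcf3 had 113 and 85.8 CPM in the Chgb group, against 217 and 235 CPM in the Neurog3 group, and fell by 1.27 ± 0.29 (edgeR adjusted p = 0.000572). Tcf4 fell by 0.87 ± 0.28 (edgeR adjusted p = 0.0310), and Tcf12 was not called. Among tissue bHLH factors Neurod2 and Nhlh1 fell and Neurod1 rose, with 299 and 558 CPM in the Chgb group, against 152 and 189 CPM in the Neurog3 group. Of the Hes and Hey repressors 2 of 2 tested were lower, and Hes1 fell by 2.74 ± 0.48 and Hes6 by 1.61 ± 0.26. In the BMP and TGF-beta pathway 1 of 4 ligands and 1 of 4 inhibitors were lower, 1 of 11 receptors was higher, and of 5 Smads 0 were called by edgeR, with 1 at an unadjusted p under 0.05. Bmp7 had 18.3 and 15.0 CPM in the Chgb group, against 82.6 and 56.1 CPM in the Neurog3 group, and fell by 2.07 ± 0.51 (edgeR adjusted p = 0.00178). Of 3 genes of Id protein turnover 1 was lower. It was Usp1, a deubiquitinase known to stabilise Id proteins, which fell by 1.63 ± 0.50, and the secreted inhibitor Fstl1 by 1.32 ± 0.41. Both tested cell cycle targets of E proteins were lower. Cdkn1a fell by 2.44 ± 0.24 and Cdkn1c, another cycle brake, by 1.66 ± 0.35. Of 16 cycle genes 4 were lower and 1 was higher. Acvr1c, a receptor of the TGF-beta family, rose by 1.96 ± 0.55, with 61.1 and 49.3 CPM in the Chgb group, against 12.9 and 13.1 CPM in the Neurog3 group.

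In hormone cells Id2 was lower on the insulin side. Id2 had 5.74 and 22.7 CPM in the insulin group, against 141 and 90.1 CPM in the Chgb group. It fell by 2.62 ± 0.51 on the log2 scale (edgeR adjusted p = 0.000199, lower in 2 of 2 libraries), where 2.28% of genes were called (1.6% higher and 0.675% lower). The size differed between libraries (-4.32 and -1.83), with 1 Id2 UMI in the insulin group of library 1 and 8 in library 2. Id1 had 5.74 and 11.3 CPM in the insulin group, against 12.2 and 25.7 CPM in the Chgb group (log2 difference -0.96 ± 0.77, edgeR adjusted p = 0.793), and Id3 (0 and 25.5 against 27.5 and 15.0 CPM) and Id4 were not called. Tgfbr2, the type II receptor for TGF-beta, rose by 3.38 ± 0.78 with 68.9 and 42.5 CPM in the insulin group, against 6.11 and 4.29 CPM in the Chgb group, and Acvr1c rose by 1.503 ± 0.42.

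On the glucagon side no member was called by edgeR, and 0 of 4 had an unadjusted p under 0.05. Id2 had 26.2 and 97.3 CPM in the Gcg group, against 141 and 90.1 CPM in the Chgb group (log2 difference -0.72 ± 0.45, edgeR adjusted p = 0.736), and the libraries went opposite ways. Thinned to 1000 UMIs, no Gcg cell held an Id2 UMI and the difference passed (adjusted p = 0.0188), and over 10 alternatives the adjusted p ran between 0.0188 and 0.92. In library 2, a few Gcg cells carried much of the Id2, with 16 UMIs in 7 of 56 cells. Id1 had 17.5 and 48.6 CPM in the Gcg group, against 12.2 and 25.7 CPM in the Chgb group (log2 difference 0.86 ± 0.67, edgeR adjusted p = 0.836). Of all genes 0.928% were called (0.496% higher and 0.432% lower). Directly between the hormone groups, Id2 had 5.74 and 22.7 CPM in the insulin group, against 26.2 and 97.3 CPM in the Gcg group, and differed by -1.90 ± 0.64 (edgeR adjusted p = 0.109, lower in 2 of 2 libraries). Id1 differed by -1.82 ± 0.83 (edgeR adjusted p = 0.349), with 2.82% of genes called (1.78% higher and 1.03% lower). The fall of Id2 against the Chgb group on the insulin side is therefore not shown to differ from the glucagon side.

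Among Spp1 cells, Id2 was higher in cycling cells in both libraries without passing. Cycling cells were those with at least 1000 CPM of 16 cycle genes together, and numbered 30 and 77 against 76 and 134 non-cycling cells. Id2 had 326 and 324 CPM in cycling cells, against 178 and 216 CPM in non-cycling cells. The log2 difference was 0.71 ± 0.25 with an unadjusted p of 0.0124 and an edgeR adjusted p of 0.314, where 1.21% of 6465 genes were called (1.13% higher and 0.0773% lower). Id3 had 98.6 and 69.2 CPM in cycling cells, against 79.9 and 40.1 CPM in non-cycling cells (log2 difference 0.54 ± 0.43, edgeR adjusted p = 0.815). Id1 went opposite ways in the libraries, with 45.5 and 104 against 79.9 and 56.1 CPM. Id4, which did not pass the filter, had 37.9 and 17.3 CPM in cycling cells, against 0 and 34.7 CPM in non-cycling cells.

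At equal depth, more than 1 Id gene in a cell was uncommon. Thinned to 1000 UMIs, 13.3% and 14.4% of the Neurog3 group and 30% and 30.1% of the Spp1 Neurog3-zero group held at least 1 Id UMI. At least 2 different Id genes were found in 0% and 0% of the Neurog3 group and in 3.75% and 3.85% of the Spp1 Neurog3-zero group, with intervals that overlapped in library 1 (0 to 3.21% against 0.780 to 10.6%) and in library 2 (0 to 2.03% against 1.42 to 8.18%). Unthinned, Id2 was found in 68.2% and 47.8% of cells with Id3 among the 2 Spp1 groups and the Neurog3 group, against 21.8% and 27.2% of cells without. Thinned, the shares were 20% and 20% against 11.7% and 15.5%, on 5 and 10 cells with Id3, and the intervals overlapped.

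Tip cells, which had too few cells in library 1 at the thresholds above, had Id1, Id2 and Id3 in their summed counts. Thinned to 1000 UMIs, 0% and 5.88% of Cpa1 cells held at least 2 different Id genes. In the Cpa1 group Id1 had 171 and 120 CPM, Id2 188 and 162 CPM, and Id3 120 and 95.8 CPM, against 64.1 and 47.9, 221 and 239, and 103 and 41.0 CPM in the Spp1 Neurog3-zero group. With the thresholds halved (Cpa1 at 3 UMIs and Spp1 at 2), the Cpa1 group had 12 and 91 cells. Id1 then had 157 and 119 CPM in the Cpa1 group, against 59.2 and 48.1 CPM in the Spp1 Neurog3-zero group. It was higher by 1.38 ± 0.43 on the log2 scale (edgeR adjusted p = 0.0334, higher in 2 of 2 libraries), where 7.62% of genes were called, and this is the only setting that allowed the comparison. At the first thresholds, the 4 neural crest and glia markers summed to 85.7 and 280.0 CPM in the Cpa1 group, against 76.9 and 52.4 CPM in the Spp1 Neurog3-zero group, with Sox10 at 0 in both libraries of the Cpa1 group. Their part in the Id1 level was not tested. Id3 differed by 0.87 ± 0.47 (edgeR adjusted p = 0.317) and Id2 by -0.25 ± 0.34 (edgeR adjusted p = 0.773). Cpa1 cells were deeper at the first thresholds, with medians of 6209.0 and 4401.0 UMIs against 3790.5 and 2689.0, and thinned to 1000 UMIs Id1 was found in 11.1% and 15.3% of them, against 5% and 7.69% of the Spp1 Neurog3-zero group.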

How the data were processed

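The deposited tables hold UMI counts per gene and barcode that the authors made, 1 table per library, with alignment to GRCm38 per the submitters' processing notes. Aligner, counter, annotation and strand: not given in the sources used here. The labels' protocols describe a flow sort, after which cells were encapsulated on the inDrop platform and amplified linearly as in CEL-Seq. No deposited column was left out (0).

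Cells had to reach 1000 UMIs and 500 genes with no more than 20% of UMIs mitochondrial, which kept 528 and 1081, and Scrublet in scanpy 1.11.5, run per library, removed 13 (2.46%) and 11 (1.02%) as doublets. Cells that met more than 1 of the Csf1r, Cpa1, insulin and Gcg thresholds (1 and 4 cells) and cells that met none of the rules (106 and 234) entered no comparison. Levels are CPM of the summed UMIs of a group in a library, without TMM scaling. UMIs were summed per group and library, and sums of groups with at least 10 cells in each library were fitted together by edgeR 4.0.16 (R 4.3.3) with quasi-likelihood, TMM factors, edgeR's default low-count filter, and group plus library as terms. The library term is the pairing, since each library holds both groups. The splits by Neurog3 count, Spp1 and cycle had fits of their own. Marker genes that define the groups were not tested, and Benjamini-Hochberg adjustment over all genes tested used a threshold of 0.05. Single-library fold changes were taken after adding 1 CPM. Shares of cells have exact Clopper-Pearson 95% intervals and the floor for 0 is 3 counts, both covering counting error only. DESeq2 1.42.0, another scaling, no filter, no library term, doublets kept, other thresholds, thinning, 20 cells as the minimum and single libraries were the alternatives.

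On simulated sums for the Neurog3 against Spp1 Neurog3-zero comparison, 194 of 200 changed genes were recovered with 10 false calls among 8617 genes. The changed genes were drawn only from better-detected genes, with a common spread and large changes (median size 2.05 on the log2 scale). Recovery of smaller changes, or of genes with few UMIs such as Id3 and Id4, was not simulated. In the fits of the splits by cycle, Neurog3 count and Spp1, 166, 163 and 171 of 200 were recovered. Named genes are the 4 members in every comparison and, from each of the other lists, at most 4 genes per comparison with the lowest adjusted p and the same sign in both libraries. Genes of the lists given without a call were picked for their role. Results of 1 gene of the lists are not reported here. Genes most like a member were ranked by Pearson r. The members, the groups and the 11 gene lists (106 genes) were chosen with earlier results of these data known.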

Additional observations from a re-analysis of the deposited data

How the results depend on the processing

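Over the alternatives other than single libraries, called members stayed on their side of the threshold with the same sign in 73 cases and lost the call in 14. These counts take in Id1 and Id2 in the split by Spp1. Their side was known there, so those cases say nothing on how firm that difference is. Members not called stayed so with the same sign in 204 cases, turned sign in 8 and gained a call in 3, which were Id2 in the Gcg against the Chgb group when thinned (-6.29, with 0 UMIs in thinned Gcg cells) and Id2 at 10 or more against 3 to 9 Neurog3 UMIs without a filter (-2.43) and with doublets kept (-2.48). Id2 in the Neurog3 group against both Spp1 groups, Id2 in the insulin against the Chgb group, and Id1 in the Chgb and in the Neurog3 and Chgb groups against the Neurog3 group kept their calls in every alternative that gave a value. In the Neurog3 against the Spp1 Neurog3-zero group, Id1 lost its call without a filter (1.25), by DESeq2 (1.17), without the replicate block, which is the library term (1.24), and with doubled thresholds (1.18), and Id3 by DESeq2 (-2.78). Against the Spp1 Neurog3-low group, Id3 lost it without a filter (-2.34), without the block (-2.47) and with halved thresholds (-1.78). In the Neurog3 group with against without Spp1, a split whose choice fixed the side of both genes, the differences past the threshold of 0.05 by edgeR were no longer past it for Id1 by DESeq2 (1.77), with doubled thresholds (1.44) and thinned (1.60), and for Id2 by DESeq2 (1.74), with doublets kept (1.55) and with scaled markers (0.76). The cause of these losses was not tested. Single libraries gave Id1 -7.40 to -7.03 in the Neurog3 and Chgb against the Neurog3 group. These values were set by the added 1 CPM because Id1 had 0 UMIs there. Only the bound of at least 3.91-fold below the pooled Neurog3 group, which takes in cells with Spp1, can be read.

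Signs turned only for members not called: Id1 in the Neurog3 against the Spp1 Neurog3-low group with scaled markers (-0.11), Id3 in the Neurog3 and Chgb against the Neurog3 group with DESeq2's size factors (0.063), Id3 in the insulin against the Chgb group with doubled (0.63) and halved thresholds (0.51) and scaled markers (0.13), Id4 there without a filter (-0.058) and with halved thresholds (-0.0080), and Id2 in the insulin against the Gcg group when thinned (3.40), where Id2 had 0 UMIs in thinned Gcg cells.

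Counts of called genes moved more. For the Neurog3 against the Spp1 Neurog3-zero group 628 became 316 by DESeq2 and 268 thinned. For the Neurog3 against the Spp1 Neurog3-low group 344 became 176 and 121, for the Chgb against the Neurog3 group 982 became 611 and 417, for the insulin against the Chgb group 216 became 111 and 70, and for the insulin against the Gcg group 267 became 142 and 87. For the Gcg against the Chgb group 88 became 48 by DESeq2, 39 thinned, 57 without the block and 56 with halved thresholds. For the Neurog3 and Chgb against the Neurog3 group 216 became 135 by DESeq2, 41 thinned, 130 without the block and 342 without a filter. For the Spp1 Neurog3-low against the Spp1 Neurog3-zero group 1 became 2 without a filter, 4 with doubled thresholds, 3 with scaled markers and 0 without the block, with halved thresholds and thinned, where edgeR gave 375, 486 and 109 genes an unadjusted p under 0.05. For cycling against non-cycling cells 78 became 142 without a filter, 45 by DESeq2, 3 thinned and 177 with scaled markers. For 10 or more against 3 to 9 Neurog3 UMIs 5 became 10 without a filter, 17 with doublets kept, 11 with scaled markers, 3 with doubled thresholds and 0 by DESeq2, without the block and with halved thresholds, where 32 genes by DESeq2 and 279 and 268 by edgeR had an unadjusted p under 0.05. For the split by Spp1 307 became 35 by DESeq2, 27 with doubled thresholds and 76 thinned.

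The Neurog3 and Chgb comparison had too few cells with doubled thresholds, scaled markers or a minimum of 20 cells. DESeq2 gave no adjusted p for 9 of the Id3 and Id4 results. With 20 and 51 Id4 UMIs in the libraries, a difference in Id4 was not detectable at this depth.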

Other observations

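Cells that met none of the marker rules (106 and 234) had 150 and 102 CPM of Id2, 85.0 and 57.1 CPM of Id3, 40.8 and 20.1 CPM of Id1 and 17.0 and 15.4 CPM of Id4. Mesenchyme markers summed there to 660 and 2052 CPM, endothelium markers to 85.0 and 487 CPM. They were compared with no group.

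Over the 16 sums of marker group and library with at least 10 cells, which share libraries and depth, the genes with levels most like Id1 were Tgif2 (r = 0.93), a repressor that acts on TGF-beta signals, St14 (0.90), a membrane serine protease, Gpc3 (0.90), a glypican, Rida (0.90) and Cdo1 (0.89), out of 8189 genes. For Id2 they were Mpzl2 (0.90), Proser2 (0.87), Actn1 (0.87), Cdkn2aipnl (0.86) and Zfp518b (0.86). For Id3 they were Sec16b (0.84), Anp32b (0.84), Cks1b (0.83), Cdca7l (0.82) and Naa50 (0.82), and for Id4, at few UMIs, Ftx (0.84), Surf2 (0.81), Eri2 (0.79), Rhbdd3 (0.78) and Net1 (0.76). Between members, r was 0.71 for Id1 with Id2, 0.60 for Id2 with Id3, 0.51 for Id1 with Id3, 0.49 for Id3 with Id4, 0.06 for Id1 with Id4 and -0.02 for Id2 with Id4. These values describe the sums and carry no test.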
